A study of Mus musculus with 6 samples.

Results

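The genes described here are 7 mouse genes of antigen presentation by major histocompatibility complex (MHC) class II: H2-Aa, H2-Ab1, H2-Eb1, H2-DMa, H2-Ob, Cd74 and Ciita. They were taken by gene symbol, each had 1 probe set, and they are 7 of the 19938 genes with a probe set of their own among the 23410 named probe sets tested. The samples were CD4+ CD44+ T cells sorted from draining lymph nodes of male Bcl6_RFP reporter mice, 8 to 10 weeks old, that had been immunised with KLH in CFA (a mollusc protein in an oil adjuvant with killed mycobacteria). All groups share this genotype and immunisation, and they differ in the sort gate: Cxcr5+Bcl6+ (receptor and red fluorescent reporter), Cxcr5+Bcl6- (receptor alone) and Cxcr5-Bcl6- (neither). Each group had 2 Affymetrix arrays, which the series calls biological replicates. No source used here says whether mice were pooled. Levels are the authors' normalised log2 values.

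MHC class II molecules are pairs of an alpha and a beta chain that carry peptides from endosomes to the surface, where CD4+ T cells read them. The invariant chain Cd74 fills the groove during assembly, H2-DM removes its last fragment so that antigen peptides can bind, and H2-O restrains H2-DM, chiefly in B cells. Ciita is the coactivator that switches the family on, by docking on the proteins RFX, CREB and NF-Y at a conserved set of promoter boxes. Dendritic cells, B cells and macrophages are among the known class II-bearing cells of lymph nodes. Mouse T cells, unlike activated human T cells, are known for making little class II RNA.

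The promoters show the boxes that the family shares. Of the 7 genes, 4 had a window in the RefSeq promoter table (build GRCm38.p6, reference strain C57BL/6J), and 3 of them had the paired boxes, shown as the 150 bases before the start. Capitals mark GCAAC (the conserved stretch of the X box), TGACGTC (an X2 box) and ATTGG (the core of the Y box, bound by NF-Y). The H2-Aa stretch lies at chr17:34287824-34287973 on the minus strand, that of H2-Eb1 at chr17:34305717-34305866 on the plus strand and that of H2-Ob at chr17:34238755-34238904 on the plus strand.
H2-Aa: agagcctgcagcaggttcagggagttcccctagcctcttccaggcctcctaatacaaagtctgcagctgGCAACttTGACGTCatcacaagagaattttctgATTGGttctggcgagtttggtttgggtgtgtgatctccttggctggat
H2-Eb1: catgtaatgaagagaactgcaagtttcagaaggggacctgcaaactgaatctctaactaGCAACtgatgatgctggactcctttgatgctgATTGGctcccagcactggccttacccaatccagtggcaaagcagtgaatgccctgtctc
H2-Ob: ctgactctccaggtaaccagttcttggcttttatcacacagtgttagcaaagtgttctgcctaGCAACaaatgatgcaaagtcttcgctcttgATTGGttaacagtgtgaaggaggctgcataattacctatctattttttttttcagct

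In the 3 promoters GCAAC preceded ATTGG on the gene's strand, with 33 bases between their first letters in H2-Aa, 32 in H2-Eb1 and 30 in H2-Ob. Searched on both strands, ATTGG was in 37.4% of 32851 promoter windows of 300 bases, and GCAAC, chosen after these promoters were read, in 35.2%. The pair at a spacing of 25 to 40 bases, a range also chosen after reading them, was in 0.794% of windows on either strand. On the gene's strand only, as in these promoters, it was in 0.39%. TGACGTC was in the H2-Aa window and in 3.21% of all windows. The X2 variant TGCGTCA (2.12% of windows) and the X1 letters AACAGAT (3.39%) were in none of the members' windows, and CAACNG, in 35.0% of all windows, was in those of H2-Eb1 and H2-Ob. Neither window of H2-DMa held the pair. A match to letters is a description of the sequence and not a measured site. H2-Ob, which carries the same paired boxes, had another pattern of levels across the sorts than H2-Aa and H2-Eb1.

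The classical chains H2-Aa, H2-Ab1 and H2-Eb1, the invariant chain Cd74 and the H2-DM alpha chain fell in both Cxcr5+ groups relative to Cxcr5-Bcl6- cells, by 1.36-fold to 2.03-fold. Levels of the classical chains were higher again in the Cxcr5+Bcl6+ sort than in the Cxcr5+Bcl6- sort. H2-Ob rose in the Cxcr5+Bcl6+ sort against both other groups. Ciita was near the background level set by olfactory and related receptors.

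H2-Aa (probe set 10450154), the alpha chain of the I-A molecule, had log2 levels of 10.49 and 10.49 in the Cxcr5+Bcl6+ sort, 10.00 and 10.12 in the Cxcr5+Bcl6- sort, and 11.09 and 11.07 in the Cxcr5-Bcl6- sort. H2-Ab1 (probe set 10444291), the beta chain of the same molecule, had 10.71 and 10.58 in the Cxcr5+Bcl6+ sort, 10.12 and 10.13 in the Cxcr5+Bcl6- sort, and 11.11 and 11.07 in the Cxcr5-Bcl6- sort. H2-Eb1 (probe set 10444298), the beta chain of the I-E molecule, had 9.80 and 9.84 in the Cxcr5+Bcl6+ sort, 9.54 and 9.44 in the Cxcr5+Bcl6- sort, and 10.46 and 10.46 in the Cxcr5-Bcl6- sort. For each of these chains the Cxcr5-Bcl6- arrays were the highest and the Cxcr5+Bcl6- arrays the lowest, with no overlap between groups. With 2 arrays a group this is common: 62.6% of all tested probe sets had no overlap between Cxcr5+Bcl6+ and Cxcr5-Bcl6- arrays, 50.1% between Cxcr5+Bcl6- and Cxcr5-Bcl6- arrays, and 65.8% between Cxcr5+Bcl6+ and Cxcr5+Bcl6- arrays.

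Cd74 (probe set 10456005) had log2 levels of 11.21 and 11.26 in the Cxcr5+Bcl6+ sort, 11.11 and 11.03 in the Cxcr5+Bcl6- sort, and 11.86 and 11.95 in the Cxcr5-Bcl6- sort. H2-DMa (probe set 10444229), which encodes the alpha chain of the peptide exchange factor, had 9.68 and 9.68 in the Cxcr5+Bcl6+ sort, 9.79 and 9.92 in the Cxcr5+Bcl6- sort, and 10.58 and 10.62 in the Cxcr5-Bcl6- sort. Both were highest in the Cxcr5-Bcl6- sort, and their neighbours in the order, the Cxcr5+ groups, did not differ past the threshold.

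H2-Ob (probe set 10444284), the beta chain of the H2-DM inhibitor, had log2 levels of 9.24 and 9.35 in the Cxcr5+Bcl6+ sort, 8.96 and 8.86 in the Cxcr5+Bcl6- sort, and 8.93 and 8.75 in the Cxcr5-Bcl6- sort. Its Cxcr5+Bcl6+ arrays were the highest of all 6, and the other groups overlapped. Ciita (probe set 10433507), the class II coactivator, had 7.87 and 7.71 in the Cxcr5+Bcl6+ sort, 7.50 and 7.45 in the Cxcr5+Bcl6- sort, and 7.66 and 7.85 in the Cxcr5-Bcl6- sort. The first and last of these groups overlapped, and Cxcr5+Bcl6- cells were lowest.

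**Figure D1:**
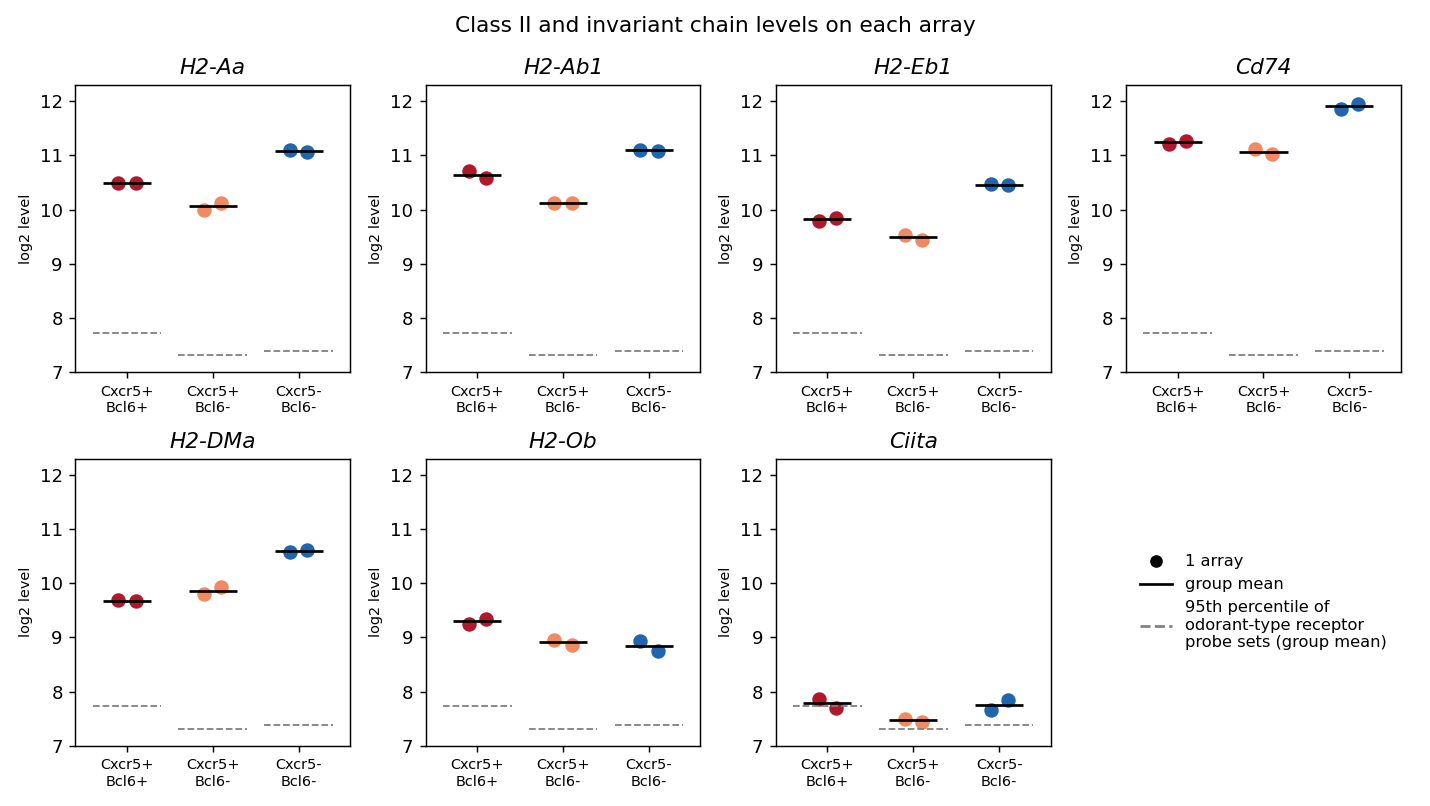
Log2 level (vertical axis) of each gene on each of the 6 arrays, by sorted group. Points are arrays, black lines are means of 2, and dashed lines are the 95th percentile of 1223 olfactory, vomeronasal and trace-amine receptor probe sets, averaged over the 2 arrays of a group. The classical chains, Cd74 and H2-DMa are highest in the Cxcr5-Bcl6- sort, H2-Ob is highest in the Cxcr5+Bcl6+ sort, and Ciita lies close to the dashed line.

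Sensory receptors of the olfactory, vomeronasal and trace-amine families, with no known role in T cells, gauged the background signal of each array. The 95th percentile of their 1223 probe sets was 7.72 and 7.73 in the Cxcr5+Bcl6+ sort, 7.30 and 7.31 in the Cxcr5+Bcl6- sort, and 7.30 and 7.46 in the Cxcr5-Bcl6- sort. The 6 members other than Ciita lay above it on every array, and H2-Ob lay above 99.7% to 99.8% of the receptor probe sets. Ciita lay below it on Cxcr5+Bcl6+ replicate 2, where 94.5% of receptor probe sets were lower, and above 96.2% to 98.0% of them on the other arrays. The receptor probe sets themselves had a median difference of 0.22 (log2) between Cxcr5+Bcl6+ and Cxcr5-Bcl6-, of -0.07 between Cxcr5+Bcl6- and Cxcr5-Bcl6-, and of 0.30 between Cxcr5+Bcl6+ and Cxcr5+Bcl6- cells. T cell genes were above that background in all sorts. Of 11 measured T cell core genes, 4 were higher (Cd3d, Cd3g, Cd4 and Cd28) and 3 lower (Cd44, Cd2 and Cd5) in the Cxcr5+Bcl6+ sort than in the Cxcr5-Bcl6- sort. Of all tested probe sets 17.6% were higher and 17.7% lower there. The 11 had summed levels (antilogs, in arbitrary units) of 65545 to 68073 in the Cxcr5+Bcl6+ sort, 64005 to 64051 in the Cxcr5+Bcl6- sort, and 60829 to 61062 in the Cxcr5-Bcl6- sort.

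Against Cxcr5-Bcl6- cells, 5 of 7 members were lower in the Cxcr5+Bcl6+ sort, where 17.7% of all tested probe sets were called lower, and 1 was higher, where 17.6% were called higher (35.3% in either direction). The members' median log2 difference was -0.59, and the median over all tested probe sets was 0.04. H2-DMa fell by 0.92 on the log2 scale (SE 0.0894), to a mean of 9.68 ± 0.00197 in the Cxcr5+Bcl6+ sort against 10.60 ± 0.0307 in the Cxcr5-Bcl6- sort (SD, n = 2 each, limma adjusted p = 9.5e-06). Cd74 differed by -0.67 (SE 0.0891, limma adjusted p = 0.000108), H2-Eb1 by -0.64 (SE 0.0876, limma adjusted p = 0.000135) and H2-Aa by -0.59 (SE 0.0886, limma adjusted p = 0.000265). H2-Ab1 moved least of those called, by -0.45 (SE 0.0891), with 10.64 ± 0.0897 in the Cxcr5+Bcl6+ sort and 11.09 ± 0.0221 in the Cxcr5-Bcl6- sort (SD, n = 2 each, limma adjusted p = 0.00201).

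H2-Ob went the other way in this comparison. It rose by 0.45 (SE 0.0976), with 9.29 ± 0.0755 in the Cxcr5+Bcl6+ sort and 8.84 ± 0.129 in the Cxcr5-Bcl6- sort (SD, n = 2 each, limma adjusted p = 0.00342). Ciita differed by 0.03, with a 95% interval of -0.19 to 0.26 (limma adjusted p = 0.835). Its levels lay near the receptor background, which itself differed by 0.22 in this comparison. The sign of its difference turned with quantile normalisation (-0.0198) and with arrays centred on their medians (-0.0142).

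Against the same Cxcr5-Bcl6- arrays, the same 5 members were lower in the Cxcr5+Bcl6- sort, where 5.93% of all tested probe sets were called lower, and 0 members were called higher by limma, where 5.22% were (also 0 at an unadjusted p under 0.05). The members' median log2 difference was -0.84, against -0.03 over all tested probe sets. H2-Aa fell by 1.02 on the log2 scale (SE 0.0886), a 2.03-fold lower level, with 10.06 ± 0.0855 in the Cxcr5+Bcl6- sort and 11.08 ± 0.0193 in the Cxcr5-Bcl6- sort (SD, n = 2 each, limma adjusted p = 2.69e-05). H2-Eb1 and H2-Ab1 each fell by 0.97 (SE 0.0876 and 0.0891, limma adjusted p = 3.49e-05 and 3.93e-05), a 1.96-fold lower level. Cd74 differed by -0.84 (SE 0.0891, limma adjusted p = 0.000109) and H2-DMa by -0.74 (SE 0.0894, limma adjusted p = 0.000271).

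The remaining 2 members were not called between Cxcr5+Bcl6- and Cxcr5-Bcl6- cells. H2-Ob differed by 0.07 (95% interval -0.15 to 0.28, limma adjusted p = 0.814). Ciita differed by -0.28 (95% interval -0.50 to -0.06, limma adjusted p = 0.113). Its unadjusted p was 0.0176, in a comparison where 11.1% of all tested probe sets were called in either direction.

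**Figure D2:**
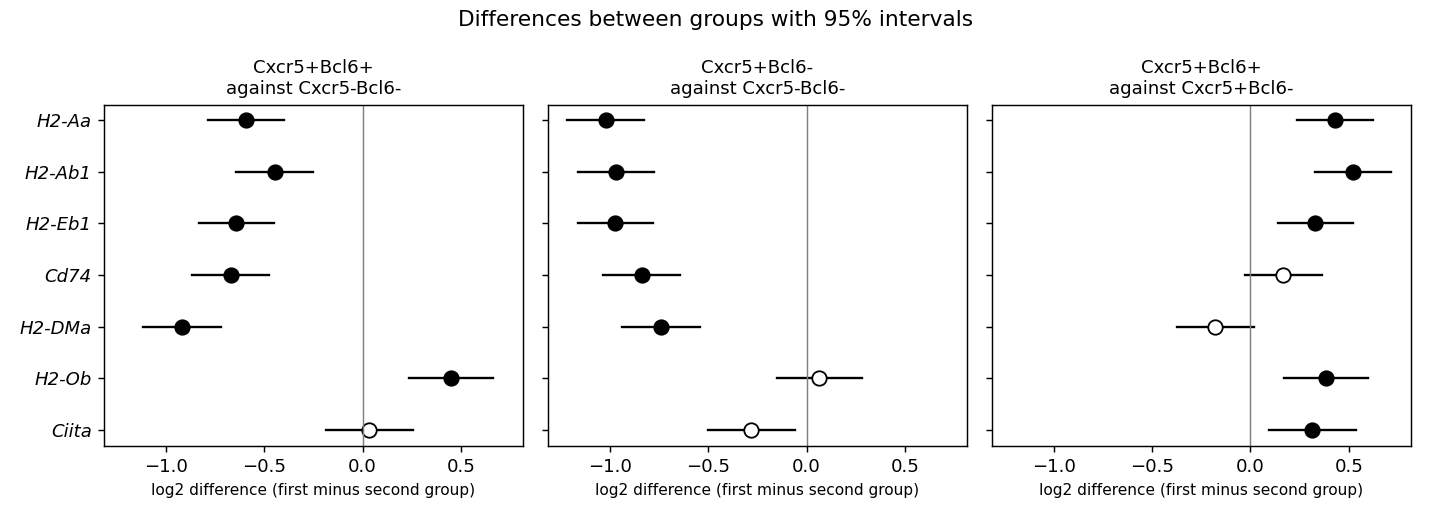
Log2 difference of each gene (horizontal axis, first minus second group) in the 3 comparisons, with 95% intervals from the fit across all tested probe sets. Filled points passed an adjusted p of 0.05 and open points did not. H2-Aa, H2-Ab1, H2-Eb1, Cd74 and H2-DMa lie left of 0 in both comparisons with Cxcr5-Bcl6- cells, while H2-Ob lies right of 0 wherever it was called.

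The Cxcr5+ groups were also set against each other, a comparison in which both gates require Cxcr5 and only the Bcl6 reporter differs. Of the 7 members, 5 were higher with Bcl6 reporter than without, where 13.4% of all tested probe sets were called higher, and 0 members were called lower by limma, where 13.0% were (also 0 at an unadjusted p under 0.05). In either direction 26.4% were called. Over all tested probe sets 3144 were higher and 3041 lower, and after centring each array on its median 2074 were higher and 3859 lower. H2-Ab1 rose by 0.52 (SE 0.0891), with 10.64 ± 0.0897 in the Cxcr5+Bcl6+ sort and 10.12 ± 0.00881 in the Cxcr5+Bcl6- sort (SD, n = 2 each, limma adjusted p = 0.00124). H2-Aa rose by 0.43 (SE 0.0886, limma adjusted p = 0.0041), H2-Ob by 0.38 (SE 0.0976, limma adjusted p = 0.0129), H2-Eb1 by 0.33 (SE 0.0876, limma adjusted p = 0.0163) and Ciita by 0.31 (SE 0.101, limma adjusted p = 0.0395). The receptor probe sets had a median difference of 0.30 in this comparison, with 573 of 1223 called, close to the size of the H2-Eb1 and Ciita rises. Their part in these rises was not tested.

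The accessory genes Cd74 and H2-DMa were not called between the Cxcr5+ groups. Cd74 differed by 0.17 (95% interval -0.03 to 0.36, limma adjusted p = 0.196) and H2-DMa by -0.18 (95% interval -0.37 to 0.02, limma adjusted p = 0.171) between Cxcr5+Bcl6+ and Cxcr5+Bcl6- cells.

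Several of these 5 calls were lost after other scaling or with 1 array fewer. Leaving out an array of either Cxcr5+ group leaves 1 array there and lowers the precision, so a lost call need not mean a smaller difference. After centring each array on its median 3 of 7 members were called higher, and H2-Eb1 (limma adjusted p = 0.0616) and Ciita (0.098) were not called. Leaving out Cxcr5+Bcl6+ replicate 2 ended the calls of H2-Eb1 (log2 difference 0.31) and H2-Ob (0.33). Leaving out Cxcr5+Bcl6- replicate 1 ended those of H2-Aa (0.37), H2-Eb1 (0.38) and Ciita (0.34), the last 2 with larger differences than on all arrays. Leaving out Cxcr5+Bcl6- replicate 2 ended those of H2-Eb1 (0.28), H2-Ob (0.34) and Ciita (0.29). Ciita also did not pass without Cxcr5+Bcl6+ replicate 1 (log2 difference 0.23). It was not called after quantile normalisation (limma adjusted p = 0.0921), over all rows (0.1) or with a replicate block (0.0568). H2-Ab1 kept its call without each array in turn.

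Other class II genes were measured beside the members. H2-Ea, the alpha chain that pairs with H2-Eb1 and is silent in the reference strain, was at the receptor background on all 6 arrays, with means of 6.23 in the Cxcr5+Bcl6+ sort, 6.14 in the Cxcr5+Bcl6- sort and 6.09 in the Cxcr5-Bcl6- sort. No source used here names the mouse strain. H2-Oa, the partner chain of H2-Ob, averaged 8.21 ± 0.108 in the Cxcr5+Bcl6+ sort, 8.33 ± 0.0189 in the Cxcr5+Bcl6- sort and 8.41 ± 0.0418 in the Cxcr5-Bcl6- sort (SD, n = 2 each) and was called in none of the 3 comparisons (limma adjusted p = 0.116 to 0.761). The rise of H2-Ob in the Cxcr5+Bcl6+ sort thus had no called counterpart in its partner chain. H2-Eb2, a beta chain gene of little known function, was higher in the Cxcr5+Bcl6+ sort by 0.38 than in the Cxcr5-Bcl6- sort and by 0.65 than in the Cxcr5+Bcl6- sort (limma adjusted p = 0.017 and 0.000977), but lay at the receptor background in both other groups. It was also at that background on 1 of the 2 Cxcr5+Bcl6+ arrays. The first of these calls was lost with quantile normalisation, over all rows, and without Cxcr5+Bcl6+ replicate 2 or Cxcr5-Bcl6- replicate 2, where 0 of the 3 genes were higher. H2-DMb1 and H2-DMb2 have no probe set of their own and are not reported.

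Of 10 measured transcription factors of class II promoters and of class II-bearing cells, 5 were lower and 1 was higher in the Cxcr5+Bcl6+ sort than in the Cxcr5-Bcl6- sort. Of all tested probe sets 17.7% were lower and 17.6% higher. The median log2 difference of the 10 was -0.32. Irf8, which encodes a factor of dendritic and B cells that activated T cells also use, fell by 2.74 on the log2 scale (limma adjusted p = 2.26e-09). Prdm1, which encodes a repressor of Ciita in plasma cells, fell by 2.12 on that scale (limma adjusted p = 5.41e-08). Spi1, which encodes the myeloid and B cell factor PU.1, averaged 7.29 ± 0.0745 in the Cxcr5+Bcl6+ sort, 7.12 ± 0.091 in the Cxcr5+Bcl6- sort and 7.92 ± 0.188 in the Cxcr5-Bcl6- sort (SD, n = 2 each), and was at the receptor background in both Cxcr5+ groups. Nfya, a subunit of the Y box factor NF-Y, was lower in the Cxcr5+Bcl6+ sort than in the Cxcr5-Bcl6- sort (-0.56) and than in the Cxcr5+Bcl6- sort (-0.51, limma adjusted p = 0.000551 and 0.00179). Between Cxcr5+Bcl6- and Cxcr5-Bcl6- cells 2 of the 10 were called, Irf8 (-0.66) and Spi1 (-0.80), both lower, where 5.93% of all tested probe sets were lower.

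Interferon gamma is the classic inducer of Ciita outside professional antigen-presenting cells. Its gene Ifng had a mean log2 level of 7.50 ± 0.00584 in the Cxcr5+Bcl6+ sort, 12.81 ± 0.0149 in the Cxcr5+Bcl6- sort and 11.64 ± 0.0514 in the Cxcr5-Bcl6- sort (SD, n = 2 each). The Cxcr5+Bcl6+ level of Ifng was at the receptor background. Cxcr5+Bcl6- cells had the highest Ifng and the lowest H2-Aa, H2-Ab1 and H2-Eb1, and the part of interferon gamma in the class II differences was not tested. Of the 8 measured genes from the interferon gamma signal to Ciita, 4 were lower and 2 higher in the Cxcr5+Bcl6+ sort than in the Cxcr5-Bcl6- sort, with 0 higher without Cxcr5+Bcl6+ replicate 2 and 1 without any 1 of the Cxcr5-Bcl6- or Cxcr5+Bcl6- arrays. Of all tested probe sets 17.7% were lower and 17.6% higher in the Cxcr5+Bcl6+ sort than in the Cxcr5-Bcl6- sort. Irf1, an interferon-induced activator of Ciita, differed by -1.60 and Socs1, a brake on the same signal, by -2.02 in that comparison (limma adjusted p = 1.78e-07 and 2.66e-08). The receptor chain gene Ifngr2 was lower in both Cxcr5+ groups (-0.89 in the Cxcr5+Bcl6+ sort and -0.50 in the Cxcr5+Bcl6- sort, limma adjusted p = 4.27e-05 and 0.00935).

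Genes of endosomal antigen processing did not move as a block with the members. Of 13, 4 were higher and 5 lower in the Cxcr5+Bcl6+ sort than in the Cxcr5-Bcl6- sort (median log2 difference -0.02). In the Cxcr5+Bcl6- sort 3 were higher and 4 lower than in the Cxcr5-Bcl6- sort (median -0.13). Of all tested probe sets 17.6% were higher and 17.7% lower in the first comparison, and 5.22% and 5.93% in the second. Ctsh, which encodes the cathepsin H protease, fell in both Cxcr5+ groups, with log2 differences of -2.11 in the Cxcr5+Bcl6+ sort and -2.04 in the Cxcr5+Bcl6- sort (limma adjusted p = 6.66e-08 and 9.9e-07) and was at the receptor background in both. Ctsl, which encodes a protease that trims the invariant chain in thymic epithelium, also fell in both (-0.58 in the Cxcr5+Bcl6+ sort and -1.31 in the Cxcr5+Bcl6- sort, limma adjusted p = 0.011 and 0.000211). The proteases Ctsd and Lgmn rose, by 0.78 and 0.76 in the Cxcr5+Bcl6+ sort and by 0.45 and 0.60 in the Cxcr5+Bcl6- sort (limma adjusted p = 3.35e-05 to 0.00687). Without either Cxcr5+Bcl6+ array, or without Cxcr5-Bcl6- replicate 1, 3 rather than 5 genes were lower in the Cxcr5+Bcl6+ sort.

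Genes of MHC class I peptide loading gave another pattern. In the Cxcr5+Bcl6+ sort, 7 of 9 measured class I and peptide loading genes were lower than in the Cxcr5-Bcl6- sort. Against the Cxcr5+Bcl6- sort 7 were also lower. Of all tested probe sets 17.7% were lower in the first of these comparisons and 13.0% in the second. Between Cxcr5+Bcl6- and Cxcr5-Bcl6- cells 0 of the 9 were called with limma (0 higher and 1 lower at an unadjusted p under 0.05). There 11.1% of all tested probe sets were called in either direction. Psmb9, an immunoproteasome subunit gene, was lower in the Cxcr5+Bcl6+ sort than in the Cxcr5+Bcl6- sort (-0.76), and so was Tap1, a peptide transporter gene (-0.49, limma adjusted p = 9.6e-05 and 0.00184). The classical class II chains were higher in the Cxcr5+Bcl6+ sort in that same comparison.

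Markers of cells that carry class II were measured on the same arrays, and in sorted bulk samples a smaller number of such cells cannot be told apart from less RNA per cell. Compared with the Cxcr5-Bcl6- sort, 17.7% of all tested probe sets were lower in the Cxcr5+Bcl6+ sort and 5.93% in the Cxcr5+Bcl6- sort. Of 11 measured plasmacytoid dendritic cell markers, 10 and 11 were lower in the same comparisons, with median log2 differences of -2.41 and -2.01. Their summed level was 2532 to 2744 in the Cxcr5+Bcl6+ sort, 3587 to 3639 in the Cxcr5+Bcl6- sort and 9904 to 10424 in the Cxcr5-Bcl6- sort. Siglech, the surface lectin that marks these cells, averaged 7.50 ± 0.233, 8.11 ± 0.0019 and 10.38 ± 0.00971 in that order (SD, n = 2 each), and was at the receptor background in the Cxcr5+Bcl6+ sort together with Pld4, Rnase6, Ccr9, Tlr7 and Lifr. Between the Cxcr5+ groups 13.0% of all tested probe sets were lower and 13.4% higher in the Cxcr5+Bcl6+ sort. Of the 11 markers 9 were lower there, and 1, the DNA sensor gene Tlr9, was higher (0.53, limma adjusted p = 0.00168), as the classical class II chains were. The lower ones included Ccr9 (-0.92), Pld4 (-0.71) and Siglech (-0.61), whose Cxcr5+Bcl6+ levels were at the receptor background, and Lifr (-0.40), which was at that background in both Cxcr5+ groups. Their part in the class II differences was not tested.

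Relative to Cxcr5-Bcl6- cells, 17.7% of all tested probe sets were lower in the Cxcr5+Bcl6+ sort and 5.93% in the Cxcr5+Bcl6- sort. Of 18 conventional dendritic cell markers, 14 and 12 were lower in the same comparisons, with medians of -0.93 and -0.82. The summed level was 12137 to 12346 in the Cxcr5+Bcl6+ sort, 14806 to 15144 in the Cxcr5+Bcl6- sort and 22866 to 23103 in the Cxcr5-Bcl6- sort. Between the Cxcr5+ groups 8 of the 18 were lower and 0 higher by limma in the Cxcr5+Bcl6+ sort (8 and 1 at an unadjusted p under 0.05), where 13.0% of all tested probe sets were lower. The classical class II chains were higher there. In the Cxcr5+Bcl6+ sort 10 of the 18 were at the receptor background, and in the Cxcr5+Bcl6- sort 5. Against Cxcr5-Bcl6- cells Fscn1, an actin-bundling gene of mature dendritic cells, fell in both Cxcr5+ groups (-2.04 in the Cxcr5+Bcl6+ sort and -2.20 in the Cxcr5+Bcl6- sort). Ccl22, a chemokine gene of the same cells, also fell in both (-3.98 and -3.00 in the same order) and was at the receptor background in the Cxcr5+Bcl6+ sort. The defining markers Xcr1, Clec9a and Clec10a were at the receptor background in all groups, and Itgax and Flt3 in both Cxcr5+ groups. Activated T cells are known to use several genes of this list, among them Ccr7, Itgae, Cd80, Cd83, Cd86 and Ly75, and Itgae alone was called higher in the Cxcr5+Bcl6- sort than in the Cxcr5-Bcl6- sort (0.37, with 0 called higher without Cxcr5-Bcl6- replicate 2 or either Cxcr5+Bcl6- array). Ccl17, a further chemokine gene of dendritic cells, was lower in the Cxcr5+Bcl6+ sort (-2.19, at the receptor background there) and in the Cxcr5+Bcl6- sort (-0.83). The part of these cells in the class II differences was not tested.

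B cell markers moved against the classical class II chains in the comparisons with Cxcr5-Bcl6- cells. Of all tested probe sets, 17.6% were higher and 17.7% lower in the Cxcr5+Bcl6+ sort, and 5.22% and 5.93% in the Cxcr5+Bcl6- sort. Of 14 measured markers, 10 were higher and 2 lower in the Cxcr5+Bcl6+ sort, and 7 and 2 in the Cxcr5+Bcl6- sort. The markers' medians were 0.80 and 0.32. The 2 lower were Ighm, the heavy chain of the B cell receptor (-0.49 in the Cxcr5+Bcl6+ sort and -0.33 in the Cxcr5+Bcl6- sort), and Fcrla (-0.81 and -0.82). Of the 10 higher in the Cxcr5+Bcl6+ sort, Cd79a, Cr2, Ebf1, Bank1 and Vpreb3 were at the receptor background in both groups compared, where the receptor probe sets had a median difference of 0.22. Without any 1 of the Cxcr5+Bcl6- or Cxcr5-Bcl6- arrays 1 rather than 2 was lower in the Cxcr5+Bcl6- sort. The summed level was 4798 to 4948 in the Cxcr5+Bcl6+ sort, 3649.8 to 3815 in the Cxcr5+Bcl6- sort and 2828 to 2960 in the Cxcr5-Bcl6- sort. Between the Cxcr5+ groups 13.4% of all tested probe sets were higher and 13.0% lower in the Cxcr5+Bcl6+ sort. Of the 14 markers 5 were higher and 0 lower there by limma (8 and 0 at an unadjusted p under 0.05). The higher markers included Cd79b (1.38) and Cd79a (0.58, at the receptor background in both Cxcr5+ groups), both parts of the B cell receptor. Ms4a1 (0.71), which encodes CD20, was also among them. Fcer2a, the low-affinity IgE receptor gene, averaged 9.27 ± 0.0296 in the Cxcr5+Bcl6+ sort, 9.39 ± 0.0534 in the Cxcr5+Bcl6- sort and 6.84 ± 0.208 in the Cxcr5-Bcl6- sort (SD, n = 2 each), and its difference of -0.13 between the Cxcr5+ groups was not called (limma adjusted p = 0.417). Blk and Fcrla were also at the receptor background in the Cxcr5+Bcl6+ sort. H2-Ob was also higher in the Cxcr5+Bcl6+ sort than in both other sorts, and the part of B cells in that rise was not tested.

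Macrophage and monocyte markers went both ways against Cxcr5-Bcl6- cells. Of all tested probe sets, 17.7% were lower and 17.6% higher in the Cxcr5+Bcl6+ sort, and 5.93% and 5.22% in the Cxcr5+Bcl6- sort. Of 14 measured markers, 4 were lower and 2 higher in the Cxcr5+Bcl6+ sort, and 4 lower and 1 higher in the Cxcr5+Bcl6- sort. The count higher in the Cxcr5+Bcl6+ sort was 5 without Cxcr5-Bcl6- replicate 2 and 1 without Cxcr5+Bcl6+ replicate 2, Cxcr5-Bcl6- replicate 1 or either Cxcr5+Bcl6- array. The summed level was 3031 to 3263 in the Cxcr5+Bcl6+ sort, 3380 to 3429 in the Cxcr5+Bcl6- sort and 5332 to 5341 in the Cxcr5-Bcl6- sort. Mpeg1, the perforin-like gene of macrophages that dendritic cells also use, fell in the Cxcr5+Bcl6+ sort (-3.62) and in the Cxcr5+Bcl6- sort (-2.09), as did the adaptor gene Tyrobp (-2.46 and -1.83). Mpeg1 and Tyrobp were at the receptor background in the Cxcr5+Bcl6+ sort. Lyz2, the lysozyme gene of macrophages and monocytes, rose in both (2.14-fold and 2.16-fold, limma adjusted p = 2.5e-05 and 0.000123). The defining markers Adgre1, Csf1r, Fcgr1, Mertk, C1qc and Cd14 were at the receptor background in all groups. Stromal and lymphatic markers were called higher in 2 of 8 cases in the Cxcr5+Bcl6+ sort, where 17.6% of all tested probe sets were. In the Cxcr5+Bcl6- sort 1 of 8 was, against 5.22% of all. Pecam1 (1.08 and 0.75), an adhesion gene that T cells also use, led both counts. Without Cxcr5+Bcl6+ replicate 1 the first of these counts was 1.

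**Figure D3:**
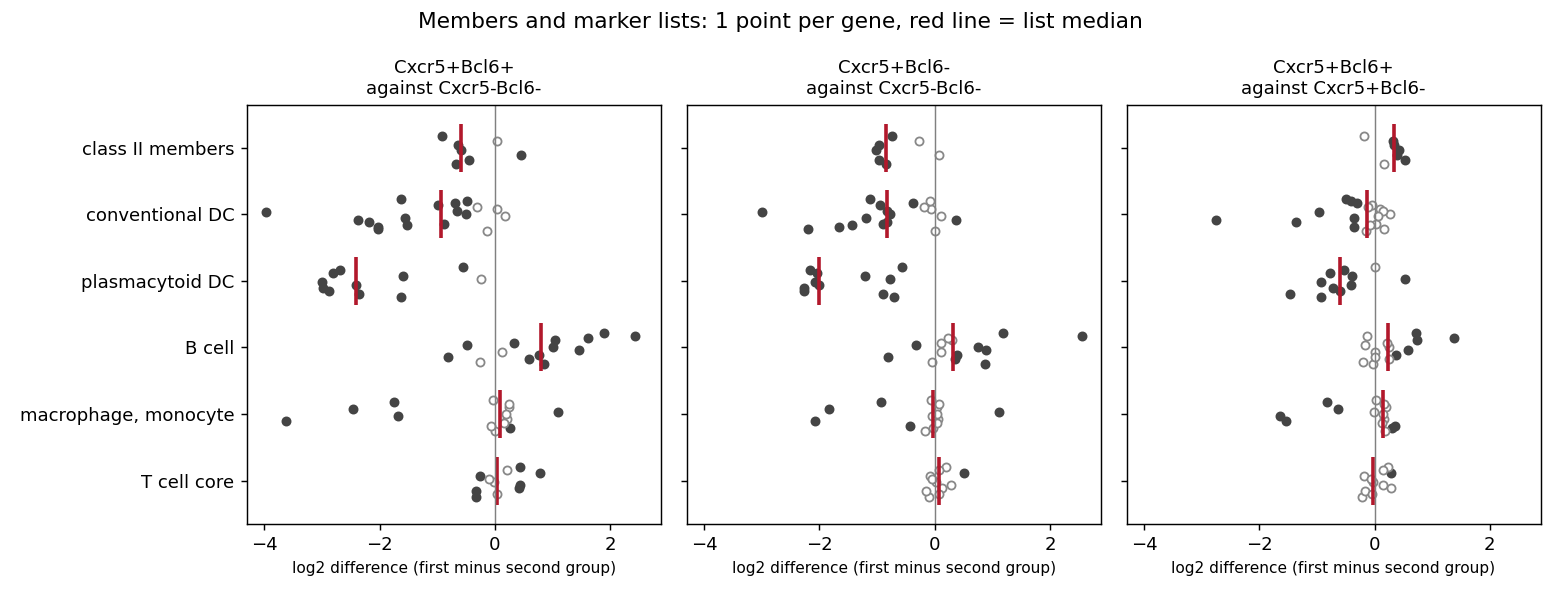
Log2 differences (horizontal axis, first minus second group) of the 7 class II members and of the marker lists of dendritic cells (DC), B cells, macrophages and T cells. Each point is 1 gene, filled where the adjusted p was under 0.05, and red lines are list medians. Most members and dendritic cell markers lie left of 0 in the comparisons with Cxcr5-Bcl6- cells, while B cell markers lie mostly to the right.

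Across the 6 arrays the members fell into patterns that can be compared after each gene is centred on its own mean. The root mean square difference from H2-Aa was 0.0762 (log2) for H2-Ab1, 0.0761 for H2-Eb1, 0.13 for Cd74, 0.249 for H2-DMa, 0.338 for Ciita and 0.509 for H2-Ob. H2-Ob was thus the member least like H2-Aa, and H2-Ab1 and H2-Eb1 the most like it. Among genes with a curated symbol, those nearest to Cd74 were Zdhhc14 (0.053), Spi1 (0.0585), Clec7a (0.0628), Bend4 (0.0695), Scimp (0.0707) and Rundc3b (0.0727). Those nearest to H2-Aa were Scimp (0.0718), an immunoglobulin kappa variable segment (0.0955), Ceacam1 (0.103), Sytl2 (0.115), Snora44 (0.118) and Pirb (0.119). The immunoglobulin segment belongs to a multigene family whose probe sets may share targets. The mean levels of Ceacam1 were under the receptor 95th percentile in all groups, and those of Zdhhc14, Spi1, Clec7a and Pirb in both Cxcr5+ groups. Those of Scimp (7.64) and Sytl2 (7.68) were under it in the Cxcr5+Bcl6+ sort. In the Cxcr5-Bcl6- sort the Clec7a mean (7.31) lay between the percentiles of the 2 arrays (7.30 and 7.46). The arrays fall into 3 groups of 2, so a likeness over 6 arrays is mainly one of 3 group means.

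**Figure D4:**
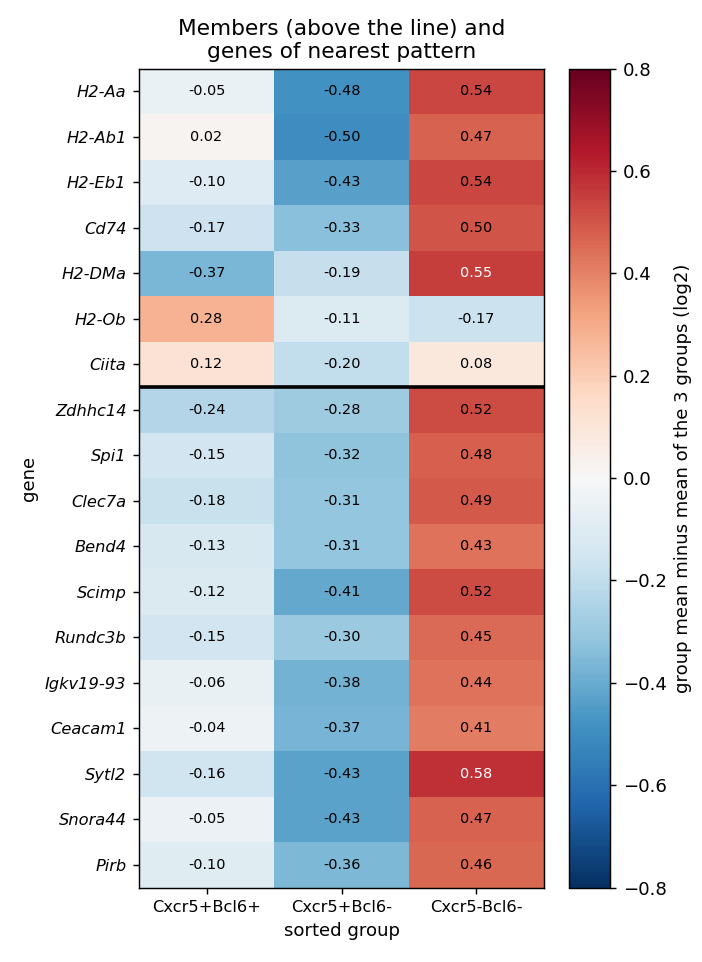
Group means of log2 level minus the mean of the 3 groups, for the members (above the line) and the genes nearest to Cd74 or H2-Aa (below it), with the value in each cell. The nearest genes were chosen for this likeness, so their shared pattern is a description. H2-Ob is highest in the Cxcr5+Bcl6+ sort (0.28).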

How the data were processed

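Total RNA was hybridised to Affymetrix whole-transcript arrays. The deposited values are log2 levels, as their range shows, and the authors' scaling between arrays was kept. GCOS 1.1, RMA and Affymetrix Expression Console are named, without order or settings, per the submitters' processing notes. Scanner files were not used here, and the background correction is the authors' own. Groups and replicate numbers came from the sample titles.

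Of 35556 rows, 21789 probe sets carried 1 gene symbol, 1621 several and 12146 were unnamed here. Symbols were updated through Entrez identifiers for 21698. The 23410 named probe sets were fitted with limma 3.58.1 (R 4.3.3, lmFit on 3 group means, eBayes, 3 residual degrees of freedom, prior 8.25), two-sided, with Benjamini-Hochberg adjustment over all of them and a threshold of 0.05. Its code was tested on simulated data. p-values measure the spread between these arrays, whose number limits the precision. The 3 comparisons share arrays.

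The members and companion lists were chosen with earlier results of these data known. Lists used 1 probe set per gene, that with the highest mean. Named genes were all members, up to 4 genes per list with the smallest F-test p, and the 6 genes nearest to Cd74 and to H2-Aa. Genes named as at the receptor background (at or under the 95th percentile on both arrays of a group) were chosen after their values were seen. So were those listed as used by T cells, and Tlr9, Lyz2, Ighm, Fcrla, Cd44, Cd2, Cd5 and B2m. Alternatives varied the variance model, scaling, filters, rows, arrays and thresholds.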

Additional observations from a re-analysis of the deposited data

How the results depend on the processing

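Of the members' differences under the alternatives, 349 kept their direction and side of the threshold, 21 lost the call and 5 turned sign. The 5 falls in each comparison with Cxcr5-Bcl6- cells kept direction and call in every alternative run, except that the H2-Ab1 fall in the Cxcr5+Bcl6+ sort was under 1.5-fold. With a 1.5-fold minimum 0 members were higher in the Cxcr5+Bcl6+ sort in either comparison. After centring on the median 3 were higher than in the Cxcr5+Bcl6- sort, and 2 to 5 without each array in turn. The Ciita difference between Cxcr5+Bcl6+ and Cxcr5-Bcl6- cells turned to -0.0198 after quantile normalisation and -0.0142 after centring, and ran from -0.0642 to 0.132 without each array in turn. The H2-Ob difference between Cxcr5+Bcl6- and Cxcr5-Bcl6- cells ran from -0.0251 to 0.157 without each array in turn. The cause was not tested. Same-numbered arrays did not deviate together (correlations of -0.046, -0.234 and 0.258 between groups), so the numbers were not taken as pairs. With the replicate block 4 members rather than 5 were higher in the Cxcr5+Bcl6+ sort than in the Cxcr5+Bcl6- sort, Ciita being lost (0.31, adjusted p = 0.0568), and it changed no other member's call. Ciita was not tested among probe sets above the median, which it does not reach. Over all probe sets, Cxcr5+Bcl6- set against Cxcr5-Bcl6- cells gave 1221 higher and 1389 lower, against 821 and 758 with all rows and 437 and 385 with a 1.5-fold minimum, and Cxcr5+Bcl6+ set against Cxcr5+Bcl6- cells gave 3144 and 3041, against 2074 and 3859 after centring and 1613 and 3105 among probe sets above the median. With a 1.5-fold minimum that comparison gave 726 and 1226, and Cxcr5+Bcl6+ set against Cxcr5-Bcl6- cells 1391 and 2079, against 4111 and 4144 without it. Without Cxcr5+Bcl6- replicate 1 the counts over all probe sets were 637 and 680 in the first of these comparisons and 1700 and 1917 in the next, and without replicate 2 they were 737 and 664 and 1679 and 2141.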
